A study of Mus musculus with 4 samples.

Results

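Type I interferon stimulated genes are the genes that cells switch on when interferon alpha or beta binds its receptor, and 37 of them were listed here. Of these, 33 had a probe set (a group of short probes against 1 transcript) whose annotation named that gene alone, among 17097 such genes in all. Each gene was read through its brightest such probe set, by the mean over all arrays. Isg15, Oas1a, Bst2 and Ifi44 are not analysed here. No filter on low values was used, so every one of the 33 measured members entered the test. The study used 4 Affymetrix arrays, each of RNA from flow-sorted CD4+CD8+ (double-positive) thymocytes of C57BL/6 mice, a stage of T cell development in the thymic cortex. 2 arrays are labelled wild type (WT) and 2 come from hCD2-iCre x Gfi1fl/fl mice, in which a recombinase driven by the human CD2 promoter, active in lymphoid cells, was combined with floxed alleles of Gfi1, a zinc-finger transcriptional repressor. The labels do not give the animals' age, say whether the wild-type mice carried the recombinase, or state that replicates were separate animals, so an effect of the recombinase itself cannot be told apart from that of the floxed gene. The p-values reflect the scatter among these 4 arrays, which may be technical.

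Interferon alpha and beta bind the receptor chains Ifnar1 and Ifnar2, whose kinases Jak1 and Tyk2 phosphorylate signal transducers such as STAT2. With IRF9, STAT2 is part of a complex that binds the interferon stimulated response element in target promoters. The products of the target genes block viral translation, degrade or edit viral RNA, deplete nucleotides, tag proteins with ISG15 or limit the signal itself. In the thymus, medullary epithelial cells are known to make interferon beta.

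Promoter windows, from 250 bases before to 50 bases after a transcript start, were taken from RefSeq (build GRCm38.p6) and matched to 28 of the 37 members by symbol. Mx1, Mx2, Oas2, Usp18, Ifi27l2a, Rtp4, Parp9, Parp14 and Tor3a had no window in the table. The windows of Ifit1, Rsad2 and Oas1g are shown because these are the members called higher below that have one, and 1 of Ifit2 because it is a relative of Ifit1 without a match. Ifit2 did not pass the test, and neither did Ifit3, another relative, whose window holds 2 matches and is shown in part further on. Capitals mark the core of the interferon stimulated response element, GAAANNGAAA, which reads TTTCNNTTTC on the other strand. The windows lie at chr19:34640639-34640938 on the plus strand for Ifit1, at chr12:26456403-26456702 on the minus strand for Rsad2, at chr5:120887564-120887863 on the minus strand for Oas1g and at chr19:34550838-34551137 on the plus strand for Ifit2, which has 2 windows, of which the downstream one is shown. Each is printed 5′ to 3′ along its gene.
Ifit1: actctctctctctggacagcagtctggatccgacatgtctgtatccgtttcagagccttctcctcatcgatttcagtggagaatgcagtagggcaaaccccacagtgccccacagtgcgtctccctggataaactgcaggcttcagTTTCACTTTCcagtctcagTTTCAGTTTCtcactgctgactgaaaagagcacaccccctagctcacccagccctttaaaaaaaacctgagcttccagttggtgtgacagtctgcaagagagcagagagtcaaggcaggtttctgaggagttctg
Rsad2: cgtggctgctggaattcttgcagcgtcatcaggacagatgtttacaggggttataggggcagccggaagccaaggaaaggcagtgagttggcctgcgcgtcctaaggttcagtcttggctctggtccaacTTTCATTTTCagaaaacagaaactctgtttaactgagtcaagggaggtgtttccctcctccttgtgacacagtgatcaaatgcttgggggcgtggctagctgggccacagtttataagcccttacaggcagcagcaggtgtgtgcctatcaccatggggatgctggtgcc
Oas1g: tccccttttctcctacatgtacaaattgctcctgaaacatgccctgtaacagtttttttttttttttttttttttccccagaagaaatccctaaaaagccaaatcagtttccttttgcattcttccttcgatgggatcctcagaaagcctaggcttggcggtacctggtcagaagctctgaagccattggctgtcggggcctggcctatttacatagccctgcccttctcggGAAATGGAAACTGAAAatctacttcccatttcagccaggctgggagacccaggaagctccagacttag
Ifit2: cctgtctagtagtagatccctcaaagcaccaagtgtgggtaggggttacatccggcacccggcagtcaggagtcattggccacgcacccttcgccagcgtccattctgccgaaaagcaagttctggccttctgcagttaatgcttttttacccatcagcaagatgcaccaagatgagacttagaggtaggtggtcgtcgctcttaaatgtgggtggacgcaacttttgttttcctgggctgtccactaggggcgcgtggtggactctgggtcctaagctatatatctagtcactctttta

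Ifit1 held 2 separate matches, whose first bases lie at -104 and -85 relative to the start, Rsad2 held 1 at -120, and Oas1g held 2 overlapping matches at -18 and -12. Neither window of Ifit2 held a match. The same core occurred in members that were measured and not called, and stretches of up to 25 bases on each side of it are shown to compare its letters and surroundings. These lie at chr19:34583348-34583441 (plus strand, Ifit3), chr7:104465195-104465254 (minus, Trim30a), chr5:120777700-120777759 (minus, Oas3), chr17:78882523-78882579 (minus, Eif2ak2) and chr7:102565433-102565494 (minus, Trim21), the last 2 falling after the start. Trim30a has 2 windows, and the match shown is the one before a start; the other lies just after the start of its other window.
Ifit3: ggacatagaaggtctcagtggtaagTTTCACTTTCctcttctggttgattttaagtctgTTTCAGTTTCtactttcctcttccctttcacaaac
Trim30a: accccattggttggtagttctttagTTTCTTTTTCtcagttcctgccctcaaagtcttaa
Oas3: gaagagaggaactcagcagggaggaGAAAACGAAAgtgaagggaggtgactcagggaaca
Eif2ak2: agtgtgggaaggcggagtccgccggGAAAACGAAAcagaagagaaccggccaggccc
Trim21: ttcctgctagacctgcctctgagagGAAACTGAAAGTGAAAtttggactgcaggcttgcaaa

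Over both strands, the core occurred in 11 of the 28 members with a window (39.3%) and in 1079 of 27025 genes in the promoter table (3.99%). It was present in 3 of 3 called members with a window and in 5 of 21 measured members that were not called. The other called members, Usp18, Ifi27l2a and Rtp4, had no window to search. The gamma activated site, TTCNNNGAA, a palindrome known from genes induced by interferon gamma, occurred in 8 of 28 members (28.6%) and in 9.55% of all genes. This site was present in 0 of the 3 called members and in 6 of the 21 not called. In Bst2 it overlapped the response element core. The letters AAATCAC, part of the sequence known to bind Gfi1, were also searched on both strands. They occurred in the window of 0 of 28 members and in 3.64% of all genes. Shorter forms of that sequence were not searched. A match describes letters in these windows and is not a measured binding site.

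**Figure D1:**
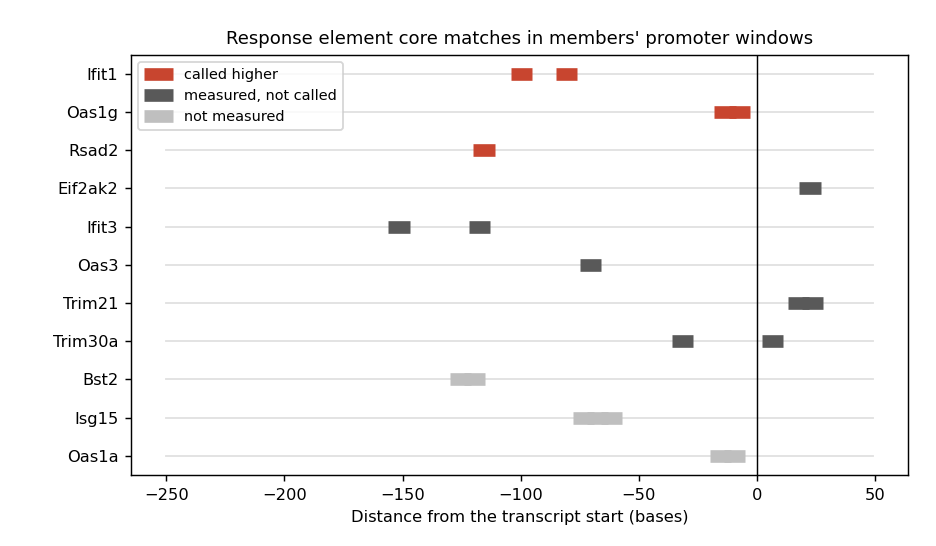
Positions of the response element core in the promoter windows of the 11 members that held it. The x axis is the distance from the transcript start in bases, bars are matches, and colours give whether the gene was called higher, measured and not called, or not measured; matches lay upstream of the start in Ifit1, Oas1g and Rsad2 and after it in Eif2ak2 and Trim21, while Trim30a has 2 windows, with a match at -36 in one and at 2 in the other.

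Values are log2 signals from RMA, a method that corrects, equalises and summarises the probes of each array, with array medians from 3.53 to 3.55. A gene was called when its limma p-value, adjusted over all 17097 genes, was under 0.05, and 161 genes were called higher and 29 lower on the arrays from floxed mice. Gfi1 itself, read by 1 probe set, was higher on those arrays, at 11.47 and 11.32 against 10.17 and 10.08 on the wild-type arrays (limma, adjusted p = 0.00781), a call lost without wild-type replicate 2 (0.0501). Where that probe set lies relative to the floxed segment is not given in the sources used here, and if it lies outside, it checks nothing. The groups are therefore called the arrays labelled knockout and the arrays labelled wild type. The double-positive markers Cd8a (12.48 to 12.78) and Rag1 (12.54 to 12.66) were high on every array. Of 10 measured double-positive markers Dntt fell, by 0.69 on the log2 scale (limma, adjusted p = 0.0413). This call did not hold without wild-type replicate 1 (difference -0.77) or 2 (-0.61), or without the intensity trend (limma, adjusted p = 0.149). Dntt has 1 probe set, and its limma adjusted p was 0.0815 when other genes were read through the mean of their probe sets. Both knockout arrays lay below both wild-type arrays for 4 of the 10, against 18.5% of all genes. These were Dntt, Cd3e (-0.33), Cd4 (-0.23) and Cd8b1 (-0.17). For 2 of the 10 both knockout arrays lay above, against 16.0% of all genes. The mean over 15 measured cell cycle genes was 8.34 and 10.04 on the knockout arrays, outside the wild-type values of 9.07 and 9.57 on either side, and its part in the results below was not tested.

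Of the 33 measured members, 6 rose on the arrays labelled knockout and none fell, with 27 not passing the test. They were Ifi27l2a, Rsad2, Ifit1, Usp18, Rtp4 and Oas1g. The called members made up 18.2% of the members, against 0.942% of all 17097 genes called higher, and the 0 called lower stands against 0.170%. At an unadjusted limma p under 0.05, 22 members were higher and 0 lower, against 4.61% and 3.67% of all genes. An ordinary t statistic without moderation called 0 members and 0 of all 17097 genes (12 members and 1219 genes at an unadjusted p under 0.05). The differences of 30 members lay above 0, with a median of 0.64 on the log2 scale beside -0.02 over all genes. Both knockout arrays lay above both wild-type arrays for 27 members, against 16.0% of all genes. For 0 members did they lie below, against 18.5% of all genes. The mean signal over the 33 members was 5.94 and 5.82 on the wild-type arrays and 6.81 and 6.96 on the knockout arrays. The list was drawn up with earlier results of these arrays known, so its direction is no independent evidence.

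**Figure D2:**
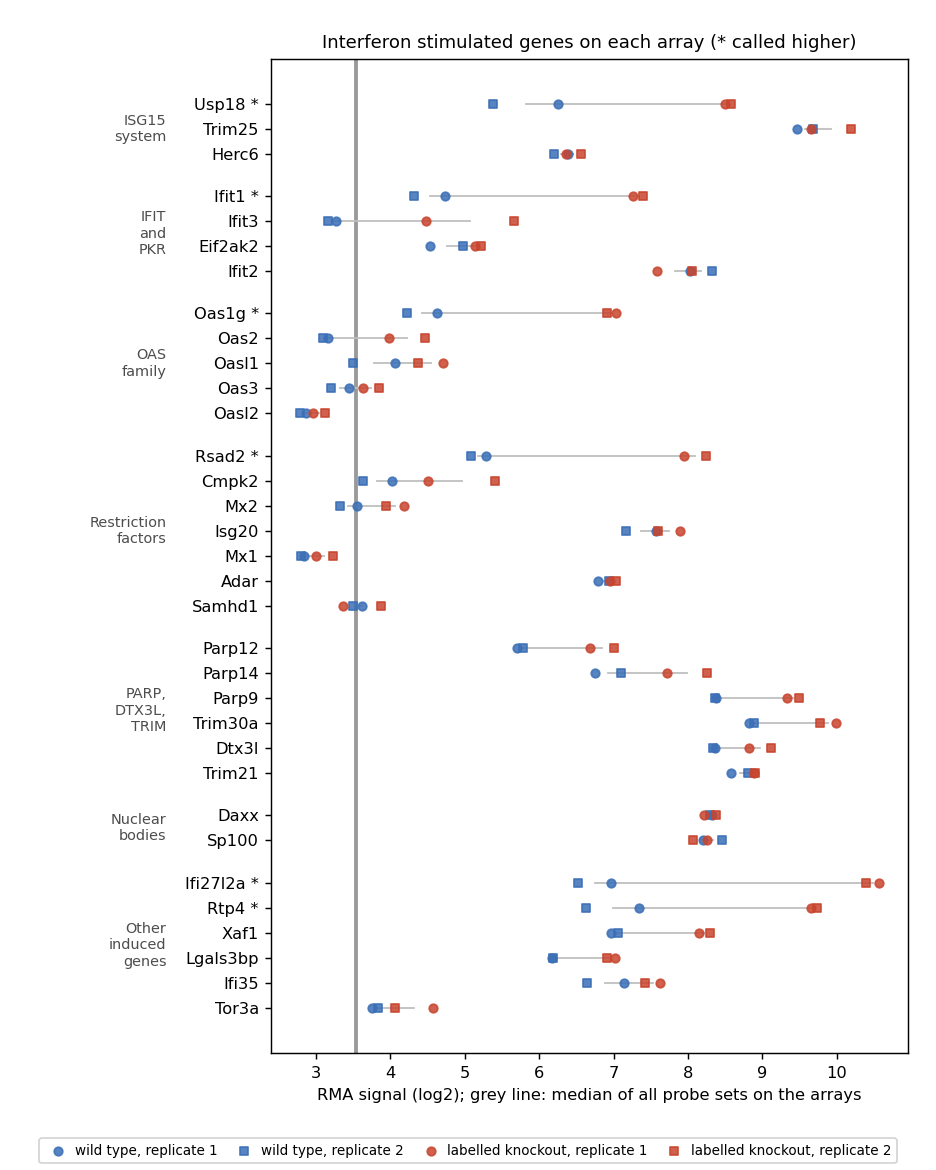
RMA signal (log2, x axis) of the 33 measured members on each of the 4 arrays, grouped by role; grey bars join the group means and the vertical grey band spans the medians of the arrays. The 6 genes marked with an asterisk were called higher and show the widest gaps between blue (wild type) and red (labelled knockout) points, while Mx1 and Oasl2 lie left of the band on all 4 arrays.

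Genes of the ISG15 system, which attaches the ubiquitin-like protein ISG15 to other proteins, differed among themselves. Usp18, the protease that removes ISG15 and that also restrains signalling at the interferon receptor, gave 6.25 and 5.38 on the wild-type arrays and 8.49 and 8.58 on the knockout arrays. The groups were separated by more than the gap between the wild-type arrays, which was the widest of any member at 0.87. Usp18 rose 6.59-fold, a log2 difference of 2.72 ± 0.32 (SE; limma, adjusted p = 0.0116). The call was lost without the intensity trend in limma's variance prior (adjusted p = 0.0548). Herc6, the main ligase for ISG15 in the mouse, gave 6.38 and 6.20 against 6.35 and 6.56, and its groups overlapped. Trim25, a ubiquitin ligase that acts on the RNA sensor RIG-I, had overlapping groups too, at 9.46 and 9.68 against 9.65 and 10.19. The 95% intervals of the difference ran from -0.41 to 0.74 for Herc6 and from -0.16 to 0.87 for Trim25, so smaller shifts of either gene would not have been seen.

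The IFIT proteins bind the ends of viral RNA and block its translation, and their 3 measured genes did not move alike. Ifit1 gave 4.74 and 4.32 on the wild-type arrays and 7.26 and 7.39 on the knockout arrays. It rose 6.94-fold, by 2.79 ± 0.26 on the log2 scale (SE; limma, adjusted p = 0.00433). Ifit3, which stabilises IFIT1 in a complex, was near the array medians in wild type at 3.28 and 3.16 and reached 4.47 and 5.66 on the knockout arrays. The 2 knockout values differed by 1.19, the widest gap between them for any member, and Ifit3 did not pass the test (difference 1.85, limma adjusted p = 0.0888). With knockout replicate 1 left out the difference was 2.44, and with replicate 2 left out 1.25; both fits called it. Ifit2, which lies beside Ifit3 on chromosome 19, was already at 8.02 and 8.32 on the wild-type arrays. On the knockout arrays it gave 7.58 and 8.06, overlapping wild type. Its difference was -0.35, with a 95% interval from -0.94 to 0.24. Eif2ak2, which encodes the kinase PKR that halts translation on sensing double-stranded RNA, gave 4.54 and 4.98 against 5.14 and 5.22 (difference 0.42, limma adjusted p = 0.821).

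The oligoadenylate synthetases make the second messenger that activates RNase L, and 1 of 5 measured genes rose. Oas1g gave 4.63 and 4.23 on the wild-type arrays and 7.03 and 6.91 on the knockout arrays. It rose 5.82-fold, by 2.54 ± 0.26 (SE, log2; limma, adjusted p = 0.00628). Oas1g lies beside its close relative Oas1a on chromosome 5, and a probe set of either can pick up the other, so the rise belongs to the signal of this probe set rather than surely to 1 gene. Oas2 went from 3.16 and 3.10 to 3.98 and 4.47, from below the array medians to above them, and just missed the threshold (difference 1.09, limma adjusted p = 0.0583). Oas3 and the OAS-like genes Oasl1 and Oasl2 differed by 0.42, 0.76 and 0.22, each with both knockout arrays above both wild-type arrays, and none passed (limma, adjusted p between 0.382 and 0.634). Oasl2 lay below the medians on all 4 arrays, between 2.79 and 3.12, where RMA compresses differences.

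Among 7 measured genes whose products restrict viruses directly, Rsad2 rose. Rsad2 encodes viperin, a radical enzyme that makes a chain-terminating nucleotide, and gave 5.28 and 5.09 on the wild-type arrays and 7.94 and 8.25 on the knockout arrays. It rose 7.51-fold, by 2.91 ± 0.25 (SE, log2; limma, adjusted p = 0.00284), the second-widest difference of the 33. Cmpk2, a mitochondrial nucleotide kinase gene and the neighbour of Rsad2 on chromosome 12, gave 4.02 and 3.63 against 4.51 and 5.41. Its difference was 1.13, with an adjusted p of 0.276 in limma, and it was 0.68 with knockout replicate 2 left out and 1.58 with replicate 1 left out. Mx1 and Mx2, dynamin-like GTPases of which laboratory strains such as C57BL/6 carry defective alleles, stayed near or below the medians of the arrays. Mx1 lay between 2.80 and 3.23 over the 4 arrays and Mx2 between 3.32 and 4.19, with differences of 0.29 and 0.63 (limma, adjusted p = 0.468 and 0.242).

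The other restriction genes did not pass the test. Isg20, an RNA exonuclease gene, gave 7.58 and 7.16 on the wild-type arrays and 7.89 and 7.5997 on the knockout arrays, a separation of the groups by less than the gap within either. Adar, the adenosine deaminase that edits double-stranded RNA, gave 6.79 and 6.94 against 6.95 and 7.04. Samhd1, a phosphohydrolase that depletes deoxynucleotides, straddled the array medians at 3.62 and 3.50 against 3.37 and 3.88. The limma 95% intervals ran from -0.21 to 0.97 for Isg20, from -0.41 to 0.67 for Adar and from -0.39 to 0.52 for Samhd1.

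The ADP-ribosylation and ubiquitin enzymes included 4 of 6 genes with a difference of at least 1 on the log2 scale, and no call. Parp9, an ADP-ribosylation protein that works with the ubiquitin ligase Dtx3l, gave 8.38 and 8.36 on the wild-type arrays and 9.33 and 9.49 on the knockout arrays (difference 1.04, limma adjusted p = 0.0574). Dtx3l, its neighbour on chromosome 16, gave 8.37 and 8.34 against 8.83 and 9.11 (0.61, adjusted p = 0.374). Parp14, a mono-ADP-ribosyltransferase gene next to Dtx3l on the other side, gave 6.74 and 7.09 against 7.71 and 8.25 (1.06, adjusted p = 0.204). These 3 adjacent genes were all higher on both knockout arrays than on either wild-type array. Parp12, another mono-ADP-ribosyltransferase gene, gave 5.70 and 5.78 against 6.69 and 7.001 (1.103, adjusted p = 0.1403). Trim30a, which encodes a regulator of Toll-like receptor signalling, gave 8.81 and 8.88 against 9.98 and 9.77, and came nearest to a call of all members that missed it (1.03, adjusted p = 0.0528). Trim21, a cytosolic antibody receptor and ubiquitin ligase, had the smallest difference of the 6, at 8.58 and 8.81 against 8.89 and 8.90 (0.19, adjusted p = 0.954).

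Sp100 and Daxx, proteins of the nuclear bodies that silence incoming viral DNA, did not pass the test. Daxx was nearly level over the 4 arrays, between 8.21 and 8.37, with a difference of -0.01 and a 95% interval from -0.48 to 0.45. Sp100 gave 8.21 and 8.45 against 8.26 and 8.07, a difference of -0.17. Together with Ifit2 these were the 3 members whose difference lay below 0.

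Of the 6 remaining measured members, Ifi27l2a and Rtp4 rose. Ifi27l2a, which encodes a small mitochondrial membrane protein, gave 6.97 and 6.52 on the wild-type arrays and 10.57 and 10.40 on the knockout arrays. Its rise of 13.3-fold, or 3.73 ± 0.22 (SE, log2; limma, adjusted p = 0.000906), was the widest of the 33 members, and its groups were separated by far more than the gaps within them. Rtp4, a receptor transporter gene whose product binds viral RNA, gave 7.35 and 6.63 against 9.65 and 9.74 and rose 6.51-fold, by 2.70 ± 0.27 (SE, log2; limma, adjusted p = 0.00573). With the mean of its probe sets in place of the brightest its difference was 1.54, and it was still called. Xaf1, a gene linked to apoptosis control, gave 6.97 and 7.06 against 8.14 and 8.29 and just missed the threshold (difference 1.20, limma adjusted p = 0.0603). Lgals3bp, which encodes a secreted galectin-3 binding glycoprotein, gave 6.18 and 6.18 against 7.02 and 6.92, and the arrays of each label lay within 0.10 of each other (difference 0.79, limma adjusted p = 0.296). Ifi35, a regulator of innate signalling, and Tor3a, a torsin ATPase gene, differed by 0.64 and 0.52 (limma, adjusted p = 0.570 and 0.592), each without overlap between the groups.

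**Figure D3:**
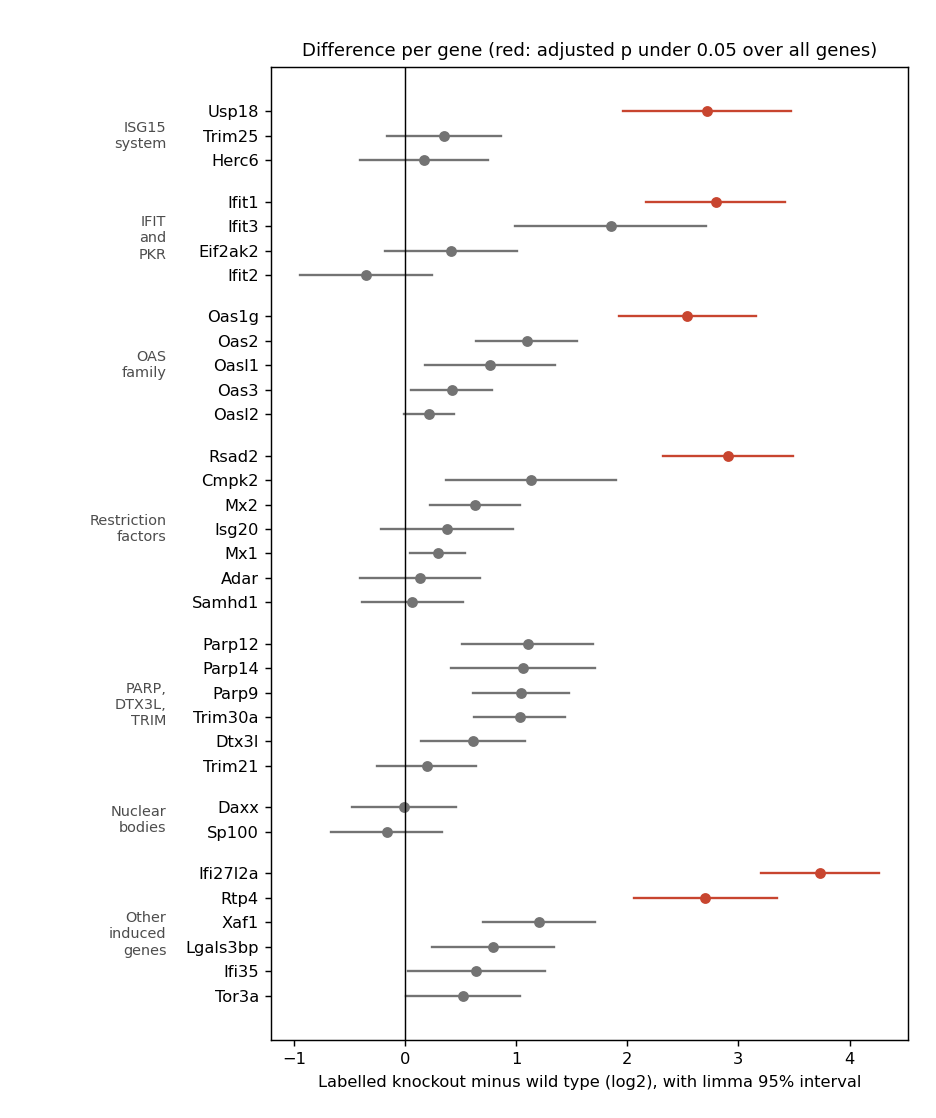
Difference between the arrays labelled knockout and wild type for each measured member (log2, x axis), with limma's 95% interval as a bar and genes grouped by role. The 6 red genes were called over all 17097 genes and lie between 2.54 and 3.73; Ifit2, Sp100 and Daxx are the 3 whose point lies left of 0.

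A further 5 members, Ifit3, Oas2, Xaf1, Parp9 and Trim30a, had adjusted p between 0.0528 and 0.0888 in limma, with differences from 1.03 to 1.85. With the robust prior, or without the dimmest 30% of genes, 10 members were called, namely the 6 with Oas2, Xaf1, Parp9 and Trim30a. With knockout replicate 1 left out 14 members were called, the 6 among them, and with knockout replicate 2 left out 11. In those 2 fits the genes called over all, in either direction, went from 190 to 475 and 467. The 6 called members stayed called without either wild-type array and without either knockout array.

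**Figure D4:**
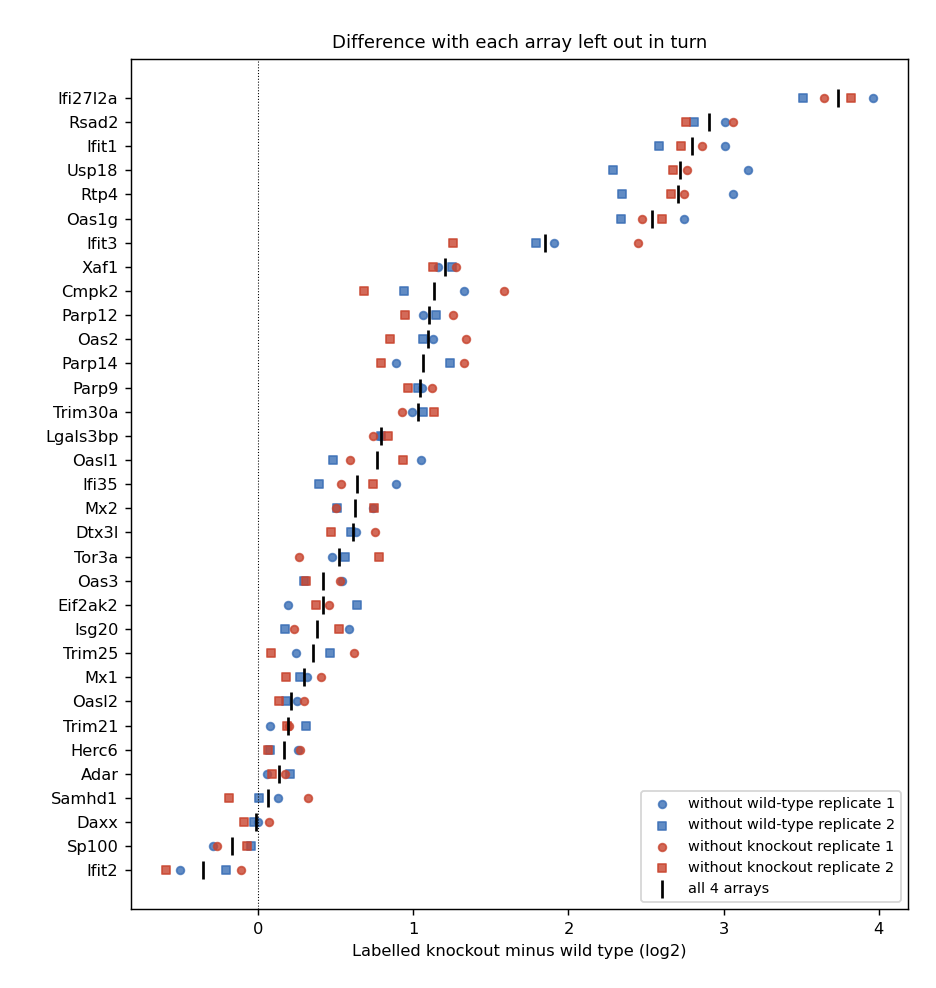
Log2 difference of each measured member with all 4 arrays (black ticks) and with each array left out in turn (blue, a wild-type array left out; red, a knockout array left out). The 6 called members stay above 2.28 in every such fit, while Ifit3 moves between 1.25 and 2.44 and Cmpk2 between 0.68 and 1.58, depending on which knockout array is left.

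The 11 members with more than 1 probe set had 14 further ones, of which 13 gave a difference above 0 and 1, of Tor3a (-0.11), below 0. In Tor3a and Sp100 a further probe set pointed opposite to the brightest, for Sp100 at 0.037 against -0.17. In a limma fit of all 28898 singly named probe sets, 1 of the 14 was called. It belonged to Rsad2, with 3.79 and 3.95 on the wild-type arrays and 6.39 and 6.39 on the knockout arrays (difference 2.51, adjusted p = 0.00444), and the remaining Rsad2 probe set differed by 1.89 (adjusted p = 0.0964). The second probe set of Trim30a differed by 1.18 (adjusted p = 0.0541). For Adar the 2 dimmer probe sets differed by 0.72 and 0.70, against 0.13 for the brightest. The second probe set of Rtp4 lay near the array medians, at 3.20 and 3.59 in the 2 groups, with a difference of 0.39 (adjusted p = 0.396), and that of Xaf1 differed by 0.10.

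Upstream of the members, none of 11 measured interferon genes was called in either direction by limma, with 0 at an unadjusted p under 0.05. Over all genes 0.942% were called higher and 0.170% lower, with 4.61% higher and 3.67% lower at that unadjusted p. Of the 11, 8 lay below the medians on all 4 arrays. Ifnb1 gave 3.52 and 3.40 against 3.31 and 3.58, and Ifng, the type II interferon, 2.81 and 3.03 against 2.73 and 2.83. The widest difference in this family was -0.15, for Ifna2. At such signals a change in these transcripts was not detectable, and the sorted cells need not be the source of an interferon. Of 9 receptor and kinase genes none was called. At an unadjusted limma p under 0.05, 2 were higher (Il10rb and Tyk2) and 0 lower, against 4.61% and 3.67% of all genes. Ifnar1 differed by 0.11, Ifnar2 by -0.33 and Jak1 by 0.02. Tyk2 gave 6.49 and 6.96 against 7.47 and 7.33, a difference of 0.68 (limma, adjusted p = 0.515), and Il10rb, a chain shared by receptors of interleukin-10 and of interferon lambda, differed by 0.86 (adjusted p = 0.229). Of 8 inhibitors of the pathway none was called (0 at an unadjusted p under 0.05), the widest differences being 0.41 for Socs1 and -0.38 for Pias3.

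Of 7 measured transcription factors of interferon responses none was called, and the median difference was 0.75. At an unadjusted limma p under 0.05, 4 were higher and 0 lower, against 4.61% and 3.67% of all genes. Irf9, the DNA-binding subunit of the complex that drives the members, gave 7.30 and 6.91 against 8.28 and 8.51 (difference 1.29, limma adjusted p = 0.0701). Irf7, which amplifies interferon production and is itself induced, gave 4.87 and 4.80 against 5.62 and 5.85 (0.90, adjusted p = 0.217), and Irf1 differed by 1.12 (adjusted p = 0.0794). Stat2, which encodes another subunit of that complex, differed by -0.08, at 5.90 and 5.94 against 5.94 and 5.74.

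Nucleic acid sensors and adaptors start interferon production. Of 15 measured, 4 lay below the medians on all 4 arrays. All 15 differences lay above 0, with a median of 0.26, against 7618 of all 17097 genes. At an unadjusted limma p under 0.05, 6 were higher and 0 lower, against 4.61% and 3.67% of all genes. Of the 15 sensors and adaptors 1 was called higher, against 0.942% of all genes. It was Sting1, the adaptor of cytosolic DNA sensing, at 5.26 and 5.02 against 7.203 and 6.86, a 3.70-fold rise (limma, adjusted p = 0.0219) that lost its call without wild-type replicate 1 or 2 (0.0862 and 0.133). A list of 36 further interferon stimulated genes, 7 of which are also among the factors and sensors, had a median difference of 0.24. Of the 36, 3 were called higher, against 0.942% of all genes, and 0 lower, against 0.170%. At an unadjusted limma p under 0.05, 13 were higher and 0 lower, against 4.61% and 3.67%. Ddx60, an RNA helicase gene, gave 4.16 and 4.05 against 6.23 and 5.75 and rose 3.70-fold (limma, adjusted p = 0.0216). Ifi203, of the family of DNA-binding interferon-inducible proteins, gave 7.10 and 7.27 against 8.64 and 8.65 and rose 2.75-fold (adjusted p = 0.0240), but lost its call with the mean of its probe sets (difference 0.68, adjusted p = 0.249). Epsti1 gave 10.60 and 10.61 against 11.68 and 11.45 and rose 1.95-fold (adjusted p = 0.0231), a call also lost without the intensity trend (0.0824). None of these 3 calls held without wild-type replicate 1 or without wild-type replicate 2, where adjusted p lay between 0.104 and 0.164.

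Genes typically induced by interferon gamma, many of which interferon alpha and beta also induce, had a median difference of 0.38. Of 19 measured, 2 were called higher, against 0.942% of all genes, and 0 lower, against 0.170%. At an unadjusted limma p under 0.05, 8 were higher and 0 lower, against 4.61% and 3.67%. Tgtp1, an immunity-related GTPase gene, gave 7.10 and 7.05 against 9.51 and 10.29 and rose 7.10-fold (limma, adjusted p = 0.00532). Iigp1, another such GTPase gene, gave 3.84 and 3.38 against 6.33 and 7.51 and rose 9.88-fold (adjusted p = 0.0138), a call lost without wild-type replicate 2 (0.0641) and without the intensity trend (0.0751). The other 17 did not pass the test. Whether this list and the members differed in their response was not tested.

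**Figure D5:**
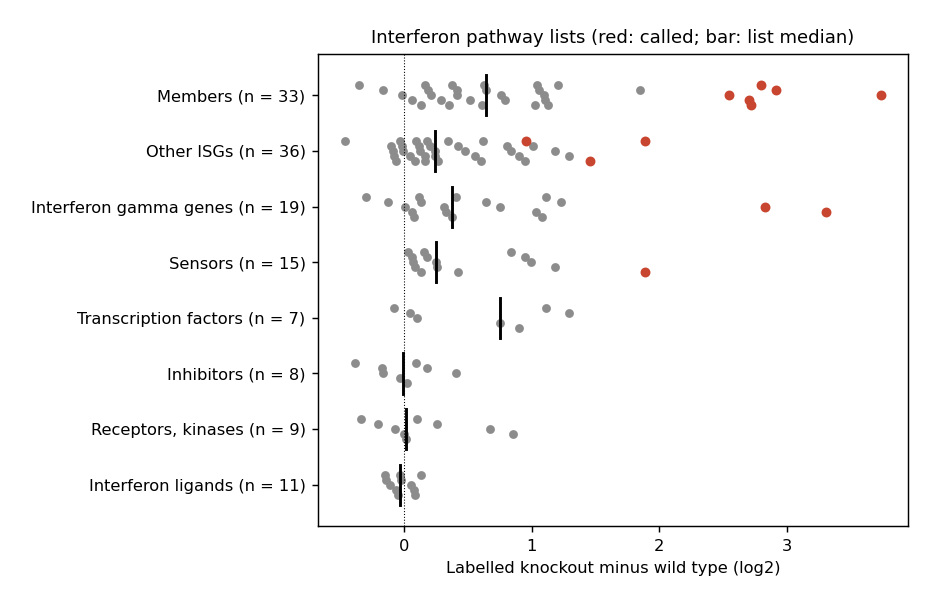
Log2 difference (x axis) of every measured gene on the members' list and on 7 pathway lists; red points were called, black bars are list medians. The members have a median of 0.64 and hold 6 of the called genes, while interferon ligands, receptors and inhibitors have medians of -0.03, 0.02 and -0.002 with no called gene.

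Markers of other cells were set beside these results. Of 8 measured markers of plasmacytoid dendritic cells, the main makers of type I interferon in blood, 0 were called. Over all genes 0.942% were called higher and 0.170% lower. The mean over the list was 6.43 and 6.42 on the wild-type arrays and 6.46 and 6.45 on the knockout arrays. At an unadjusted limma p under 0.05, 1 of the 8 was higher and 1 lower, against 4.61% and 3.67% of all genes. Irf8, also on the factor list, went from 4.01 and 3.91 to 4.63 and 4.78 (difference 0.75, adjusted p = 0.202), and Ly6d from 11.47 and 11.47 to 10.89 and 10.68 (-0.69, adjusted p = 0.0814). Tcf4 differed by 0.002, and Spib lay between 3.09 and 3.35. Ccr9 gave 12.86 and 12.76 against 13.01 and 12.96. Ccr9 and Ly6d were the brightest of the 8, so the list mean leans on them. That mean does not measure how many such cells were present. Of 18 macrophage and dendritic markers 1 was called higher and 0 lower, against 0.942% and 0.170% of all genes. It was Ctss (4.59 on the log2 scale). The list means were 3.86 and 3.69 against 4.07 and 4.22. Among the other 17, Flt3, Lyz2 and Mpeg1 had both knockout arrays above both wild-type arrays, as had 16.0% of all genes. Flt3, Lyz2 and Mpeg1 differed by 0.52, 0.51 and 0.44 (limma, adjusted p = 0.470, 0.718 and 0.667). Csf1r, Itgax, Fcer1g and Cd68 had signals between 3.13 and 3.62 on every array. H2-Aa, H2-Ab1 and Cd74 lay above the array medians on all 4 arrays, with overlapping groups. H2-Aa gave 5.56 and 5.31 against 4.95 and 6.26, higher on knockout replicate 2. Of the 18 differences 14 lay above 0 and 4 below, beside 7618 of all 17097 genes above 0. Means over 6 B cell, 9 thymic epithelial, 8 NK and gamma-delta T cell and 3 erythroid markers ranged from 3.91 to 4.04, 4.02 to 4.30, 2.997 to 3.04 and 6.33 to 7.01 on the wild-type arrays. On the knockout arrays they ranged from 3.68 to 3.89, 4.38 to 4.55, 3.18 to 3.36 and 6.19 to 6.41. On these lists 0 genes were called, against 0.942% of all genes called higher and 0.170% lower. At an unadjusted limma p under 0.05, 0 B cell, 2 epithelial, 3 NK and gamma-delta and 0 erythroid markers were higher, and 1, 1, 0 and 1 were lower. At that threshold 4.61% of all genes were higher and 3.67% lower. The epithelial markers Epcam and Cldn4 differed by 1.68 and 1.26, with Epcam at 6.89 and 6.06 against 8.63 and 7.69 and Cldn4 at 7.91 and 7.12 against 9.05 and 8.50 (limma, adjusted p = 0.163 and 0.204). Both moved with the members. On the epithelial list 5 of 9 differences lay above 0 and 4 below, and 5 of the 9 markers lay below the medians on all 4 arrays. Krt8 (-0.30) and Ccl25 (-0.21) had both knockout arrays below both wild-type arrays. Krt8 lay below the medians on all 4 arrays, between 2.84 and 3.22, and Ccl25 above them. Nkg7 of the NK list differed by 0.99, Cd79b of the B cell list by -1.23 and Car2 of the erythroid list by -1.87 (limma, adjusted p = 0.214, 0.347 and 0.1403). Hba-a1, also erythroid, went the other way, by 0.83, with 7.35 and 10.17 against 8.72 and 10.45. On the B cell list 3 differences lay above 0 and 3 below, and 4 of the 6 markers lay below the medians on all 4 arrays. On the NK list 6 differences lay above 0 and 2 below, and on the erythroid list 1 and 2. Of 8 measured markers of mature single-positive thymocytes 4 rose: Klf2 by 5.20, Gimap4 by 3.92, Itgb7 by 2.92 and S1pr1 by 1.43 on the log2 scale, the last not called when wild-type replicate 1 or 2 was left out (limma, adjusted p = 0.0966 and 0.246), without the intensity trend (0.0548) or with the replicate block (0.0713). The 4 called of 8 stand beside 0.942% of all genes called higher. That list's mean went from 6.04 and 5.82 to 7.68 and 7.80, moving with the members. Runx3, which was not called, gave 4.59 and 4.54 against 5.64 and 6.04, a difference of 1.28 (limma, adjusted p = 0.0880). Not every marker on the list rose. Gimap6 differed by -0.42, with both knockout arrays below both wild-type arrays. Cd69 (0.13) and Zbtb7b (0.04) had overlapping groups, and Zbtb7b lay below the medians on all 4 arrays. At an unadjusted limma p under 0.05, 5 of the 8 were higher and 1 lower, against 4.61% and 3.67% of all genes. The part of these markers in the interferon genes' rise was not tested, and in bulk RNA more cells of a type and more RNA per cell cannot be told apart.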

How the data were processed

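Biotin-labelled cRNA of 4 sorted samples was prepared with an Affymetrix 3′ IVT kit for 1-colour arrays, per the labels' protocols. The submitters' processing notes list RMA and the software Affymetrix Expression Console 1.1. From their range and near-equal quartiles, the values the authors deposited are log2 signals, and they were not rescaled for the main fit. Detection calls and scanner files were not used here, so signal over background could not be judged per probe set.

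Of 45037 probe sets, 28898 carried 1 gene symbol in the platform annotation, 551 several and 15588 none here, which gave 17097 genes. Mb21d1 and Tmem173 were matched as Cgas and Sting1 through RefSeq synonyms. Of 250 listed genes, 213 were measured. Groups came from the sample titles, 2 arrays each. lmFit and eBayes of limma 3.58.1 (R 4.3.3), with an intensity trend and no covariate, were fitted over all genes with 2 residual and 5.00 prior degrees of freedom. Calls used a two-sided Benjamini-Hochberg adjusted p under 0.05 over all genes, and no list was tested as a set. Folds are antilogs (base 2) of those differences. Simulated data served to check the fit. Members and lists were chosen with earlier results of these data known. All members are named; on other lists the called genes (up to 5; 3 on marker lists), or up to 2 genes where none was called, were named, with the receptor chains, Jak1, Tyk2, Stat2, Irf9, Irf7, Ifnb1, Ifng and Gfi1 in any case. Csf1r, Itgax, Fcer1g, Cd68, Irf8, Ly6d, Flt3, Lyz2, Mpeg1, H2-Aa, H2-Ab1, Cd74, Epcam, Cldn4, Krt8, Ccl25, Nkg7, Cd79b, Car2, S1pr1, Gimap6, Cd69, Zbtb7b, Cd8a, Rag1, Cd4, Cd8b1 and Cd3e fall outside this rule and were named after their values were seen. The same holds for Ccr9, Runx3 and Hba-a1. Alternatives were a replicate block, 2 rescalings, filters on the dimmest 30% and 50% of genes, priors without trend and robust, the mean of a gene's probe sets, an ordinary t statistic and leaving out each array. Plots used matplotlib 3.10.9 (Python 3.11.15).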

Additional observations from a re-analysis of the deposited data

How the results depend on the processing

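The precision is set by 2 arrays per label, and without detection calls a low signal cannot be told from background. All 6 called members kept their direction in every alternative run, and their call in all but 2: without the intensity trend Usp18 was lost, and the ordinary t statistic called 0 genes higher and 0 lower, 0 members and 0 of the other interferon stimulated genes. With 10 members called, both the filter on the dimmest 30% and the robust prior exceeded the 6 of the main setting. The median difference of the members (0.64) became 0.76 and 0.79 without the dimmest 30% and 50% of genes, which also leave out 2 and 6 members. Without the trend, 18 genes were called lower over all genes instead of 29.

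Leaving out 1 array in turn, the members called ranged from 6 to 14, the members' median difference from 0.60 to 0.79, the other interferon stimulated genes called from 0 to 6, genes called higher over all genes from 87 to 325 and genes called lower from 10 to 178. A label with 1 array left is assumed to vary like the other. The lone directions that turned were those of Daxx (-0.01), which ranged from -0.0917 to 0.0680 when 1 array was left out and was 0.0126 after a second quantile normalization, and of Samhd1 (0.07), which was -0.19 without knockout replicate 2 and ranged up to 0.32. Daxx was 0.0014 without wild-type replicate 1. The cause of these shifts was not tested.

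Both groups carry replicate numbers 1 and 2, and nothing in the labels ties equal numbers to one animal or day. Deviations of same-numbered arrays from their group means correlated at 0.30 over genes. With the replicate number as a block (the pairing), 6 members were called, the same genes as without it, and 183 genes in all against 190. Of the named genes S1pr1 lost its call (adjusted p = 0.0713).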

Other observations

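Within a label, the members did not all vary together. Between the wild-type arrays, 12 of 33 members were higher on replicate 2 (36.4%, against 41.7% of all genes), and 23 of 33 between the knockout arrays (69.7%, against 43.2% of all genes). Between the knockout arrays the gaps were widest for Ifit3 (1.19), Cmpk2 (0.90), Parp14 (0.54) and Trim25 (0.53), all higher on knockout replicate 2. Tor3a (-0.51), Oasl1 (-0.34), Isg20 (-0.29) and Mx2 (-0.25) were lower there. Of the called members, Ifit1, Rsad2, Usp18 and Rtp4 were higher on knockout replicate 2, by 0.13, 0.31, 0.09 and 0.09, and Oas1g and Ifi27l2a differed by -0.13 and -0.17.

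Several members are adjacent protein-coding genes in RefSeq, and adjacent members differed unequally. Rsad2 and Cmpk2 on chromosome 12 differed between the labels by 2.91 and 1.13, Ifit2 and Ifit3 on chromosome 19 by -0.35 and 1.85, Oas2 and Oas3 on chromosome 5 by 1.09 and 0.42, and Oasl2 and Oasl1 on chromosome 5 by 0.22 and 0.76. Parp14, Dtx3l and Parp9 on chromosome 16 lay closer together, at 1.06, 0.61 and 1.04. These gaps between probe sets of different genes were not tested.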
